A study of Saccharomyces cerevisiae with 9 samples.

Results

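The proteasome of Saccharomyces cerevisiae was followed through the transcripts of 32 subunit genes and of RPN4, the gene of their transcriptional activator. The 33 genes (SCL1, PRE1 to PRE10, PUP1 to PUP3, RPN1 to RPN13 and RPT1 to RPT6) were found by symbol or systematic name among the 6256 genes with a probe on a 1-colour Agilent yeast array. All 33 had 1 probe each, and each probe was well above background on all 9 arrays and saturated on none. The core particle had 14 of these genes and the regulatory particle 18. SEM1, the gene of the small lid subunit Rpn15, was not among them and stood in a list of associated genes.

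The proteasome breaks down proteins that carry ubiquitin chains. Its core particle is a barrel of stacked rings, in which α subunits form the gate and β subunits hold the cutting sites, and its regulatory particle has a base of ATPases, which unfolds the substrate, and a lid, which removes the ubiquitin. In yeast the activator Rpn4 binds a shared element in the promoters of most subunit genes and is itself a very short-lived substrate of the proteasome, so that the supply of proteasomes feeds back on its own genes. Transcription of RPN4 is known to be raised by heat and by oxidative stress, through factors such as Hsf1 and Yap1.

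RNA was compared between Hyb-8, a hybrid yeast, and the parental strains Sun224T-K, which is acid-tolerant, and Sun049T-Z, which is thermotolerant, with 3 arrays for each strain. Hyb-8 is 1 isolate from matings of spores of the UV-treated parental strains, chosen for its fermentation of xylose among hybrids that had been screened for growth under heat and acids. All strains are diploid and carry a plasmid with XYL1 and XYL2 of Scheffersomyces stipitis and XKS1, kept with clonNAT, for the use of xylose. A G418 marker had been put into the HO locus of Sun224T-K and a zeocin marker into that of Sun049T-Z, and Hyb-8 was selected for both. The labels list PHO13 as deleted in Hyb-8 and Sun224T-K and call Sun049T-Z the control. Every culture was taken 3 h after the start of fermentation of 50 g/L xylose, in medium at 38°C to which formic acid (15 mM) and acetic acid (20 mM) had been added. The data therefore compare strains under 1 condition, and no unstressed culture was analysed here.

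Levels are log2 intensities relative to the array's own 75th percentile, as the mean of the 7 spots that carry a probe. Differences between strains are log2 fold changes from one limma fit over the 5947 probes that passed a filter on dim probes. A gene passed at a Benjamini-Hochberg adjusted p under 0.05 over all of these probes, and a stricter call also asked for a fold of at least 2. Levels of different probes are not compared with each other. RNA came from whole cultures, so that fewer expressing cells and less RNA per cell cannot be told apart. The parental strains differ in genetic background, and each gene was read by a single probe. A strain difference in the sequence under the probe or in gene copy number therefore cannot be told apart from a difference in RNA. Neither was tested. Nothing in the sources used here states that replicate arrays were hybridised with RNA of separate cultures, and p-values measure the spread between arrays only, which may be technical.

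The 75th percentile lay between 1044 and 4830 intensity units, and the share of spots well above background between 90.2% and 96.5%. One array, Sun049T-Z replicate 1, stood apart, with the lowest value of both and a median SD of 0.324 (log2) between the spots of a probe, against 0.0667 or less on the other arrays. There were 4 slides, and all 3 strains were present on slides 2 and 4. PHO13 went against its label: its level was -1.71, -1.74 and -1.72 on the arrays labelled Hyb-8, -1.74, -1.20 and -1.72 on those labelled Sun224T-K, and -3.71, -3.74 and -3.90 on those labelled Sun049T-Z. Where the probe lies relative to the deleted part is not known here. Strain names below are those of the labels, and every direction rests on them. Of 14 genes that haploid cells express, some in a single mating type only, and diploid cells repress, 9 were well above background on all 9 arrays. HO was so on 2. Because most spots on every array were well above background, this count cannot decide ploidy, which was not tested.

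RPN4 was lowest in Sun224T-K, intermediate in Hyb-8 and highest in Sun049T-Z. RPN4 (YDL020C, chromosome IV) encodes the activator of the subunit genes. Its level was 1.89, 2.21 and 2.26 in Hyb-8, 1.72, 1.64 and 1.63 in Sun224T-K, and 3.05, 3.07 and 3.19 in Sun049T-Z. No array of one strain overlapped with those of another, and all 6 arrays of the other strains lay well under Sun049T-Z. The means were 2.12 ± 0.20 in Hyb-8, 1.67 ± 0.05 in Sun224T-K and 3.10 ± 0.08 in Sun049T-Z (SD, n = 3 each).

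RPN4 fell in Hyb-8 relative to Sun049T-Z by 0.98 on the log2 scale (SE 0.12, limma adjusted p = 0.000109), which is 0.506 times the Sun049T-Z level and just short of a 2-fold decrease. In Sun224T-K relative to Sun049T-Z it fell by 1.44 (SE 0.12, limma adjusted p = 1.06e-05), or 0.369 times, which met the 2-fold rule. The difference of Hyb-8 over Sun224T-K was 0.45 (95% interval 0.19 to 0.72) and did not pass (limma adjusted p = 0.0579), although every Hyb-8 array lay above every Sun224T-K array. This call rested on single arrays: the difference passed without Hyb-8 replicate 1 (0.57, adjusted p = 0.0356) and without Sun049T-Z replicate 1, which enters only through the shared spread (0.45, adjusted p = 0.0491). Within slides 2 and 4 the RPN4 difference was -1.18 and -0.93 for Hyb-8 over Sun049T-Z, 0.21 and 0.63 for Hyb-8 over Sun224T-K, and -1.39 and -1.56 for Sun224T-K over Sun049T-Z.

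**Figure D1:**
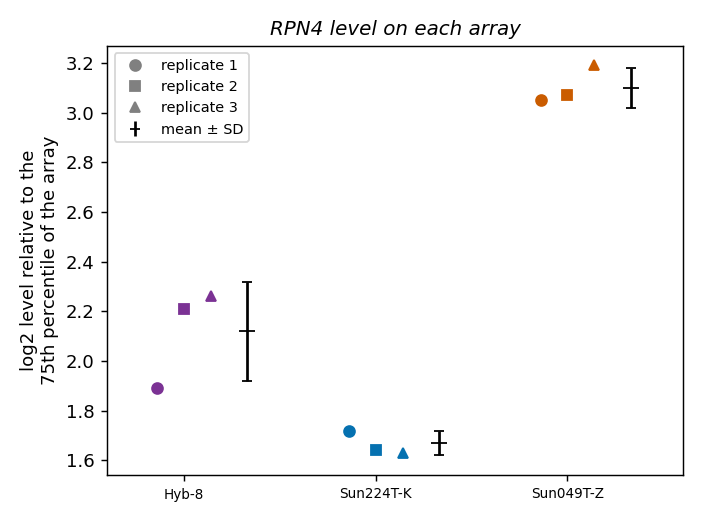
Level of the RPN4 transcript on each array, as log2 intensity relative to the 75th percentile of the array, with the mean and SD of each strain (n = 3). The Hyb-8 arrays lie between 1.89 and 2.26, above the Sun224T-K arrays and below the Sun049T-Z arrays, which start at 3.05.

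The subunit genes did not follow one direction between Hyb-8 and Sun049T-Z. Of the 32 subunits, 5 rose in Hyb-8 and 9 fell, and 18 did not pass. Over all probes tested 56% passed, 28.7% higher and 27.3% lower, so that the share of subunits that passed was under the background. No subunit met the 2-fold rule, against 18.5% of all probes, although 1 did without Sun049T-Z replicate 2 or replicate 3. The median log2 fold change of the subunits was -0.13, or 0.914-fold, against 0.03 over all probes, and the values ran from -0.83 for RPT6 to 0.89 for PUP3. Their SD between genes was 0.42, against 0.99 over all probes, which ran from -10.14 to 9.70. The 25th to 75th percentile was -0.35 to 0.21 for the subunits and -0.44 to 0.49 for all probes. The split of 5 higher and 9 lower depended on the scaling, with 3 and 9 after quantile normalization, 2 and 9 after a shift to the array median, and 1 and 12 after scaling to ACT1.

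**Figure D2:**
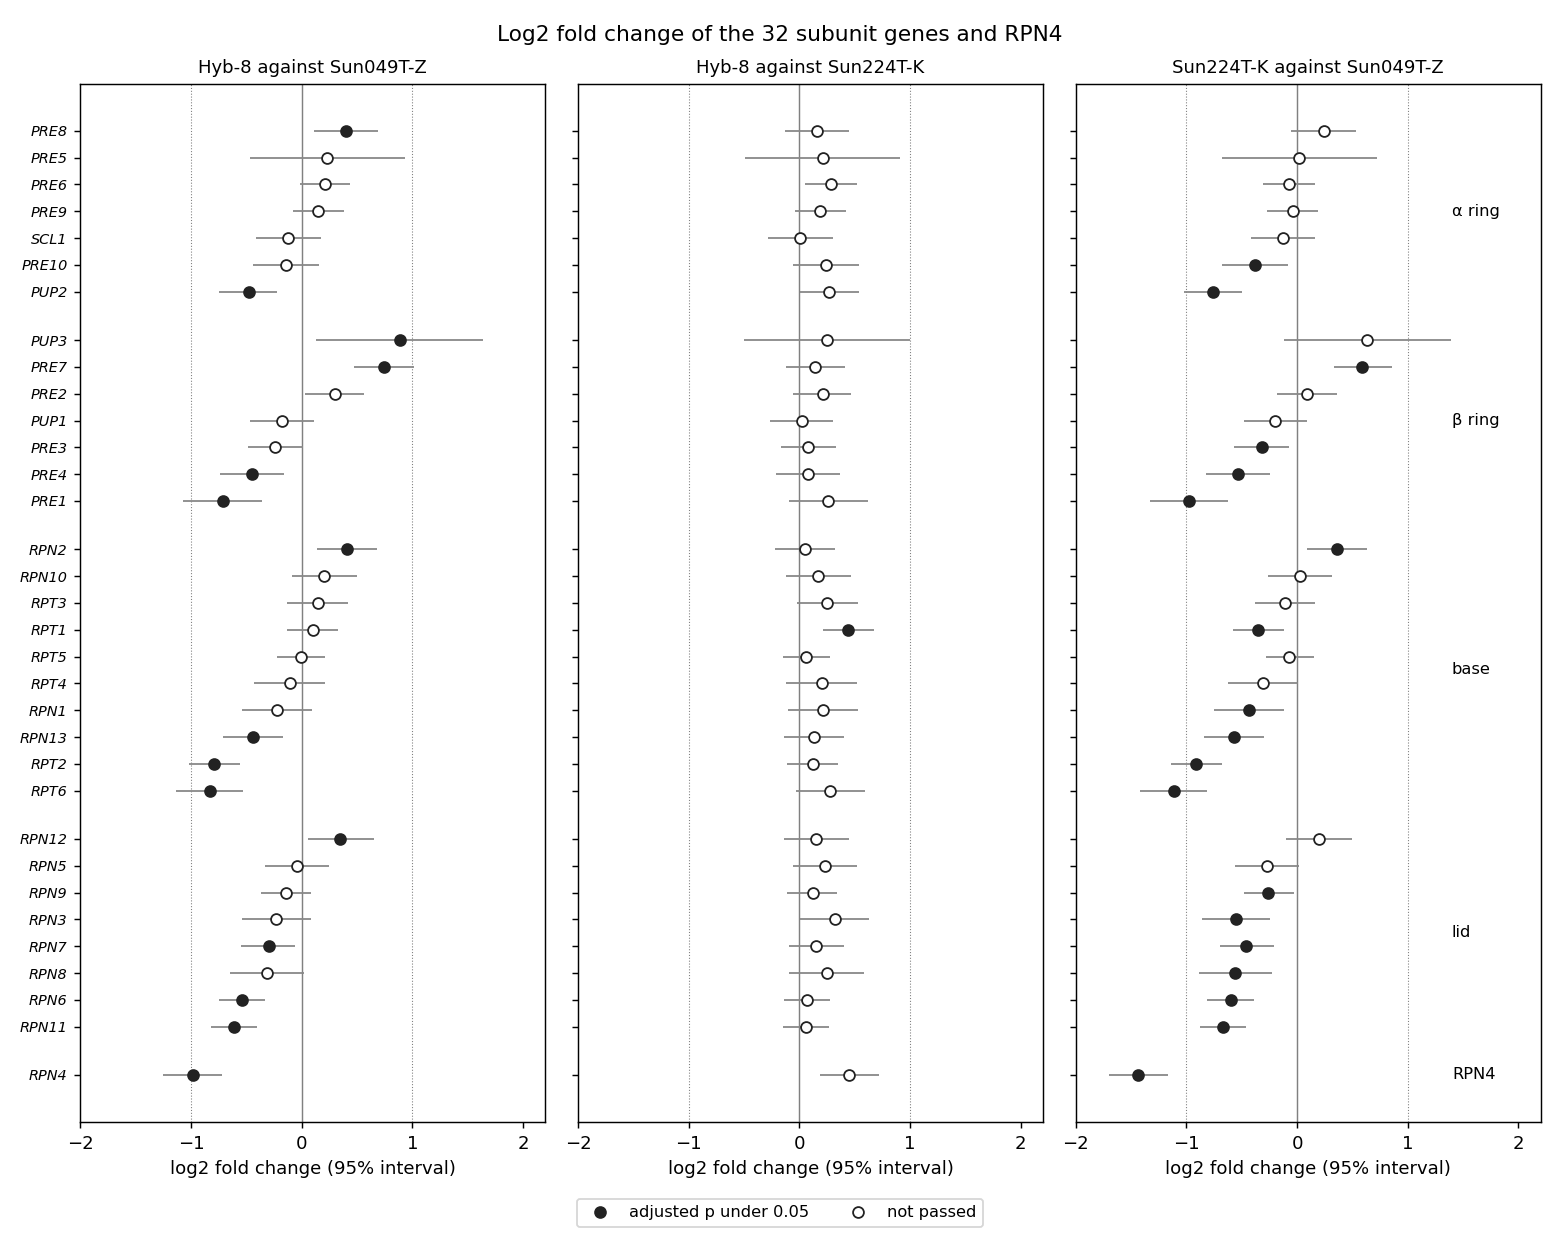
Log2 fold changes of the 32 subunit genes, grouped by ring, base and lid, and of RPN4 in the 3 comparisons, with 95% intervals (limma). Filled points passed at an adjusted p under 0.05, and dotted lines mark a 2-fold change. Points lie on both sides of 0 against Sun049T-Z, whereas all 32 subunits of Hyb-8 lie above 0 against Sun224T-K.

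In the core particle, 3 genes rose and 3 fell in Hyb-8 relative to Sun049T-Z, with a median of 0.02 that lay between -0.14 and 0.05 under the alternatives. Without Hyb-8 replicate 1 or Hyb-8 replicate 3 only 1 core gene passed higher. In the α ring 1 of 7 genes passed in each direction. PRE8 had levels of 1.28, 1.20 and 1.20 in Hyb-8 and of 1.12, 0.64 and 0.72 in Sun049T-Z, and rose by 0.40 (SE 0.13, adjusted p = 0.0237). The Sun049T-Z value of replicate 1 lay close to the Hyb-8 arrays. The call of PRE8 ended without Hyb-8 replicate 1, Hyb-8 replicate 3, Sun049T-Z replicate 2 or Sun049T-Z replicate 3 (0.31 to 0.42, adjusted p between 0.0535 and 0.0946), and also after quantile normalization, the median shift or scaling to ACT1 and with the authors' log2 values (0.24 to 0.37), so that no α ring gene was then higher. PUP2 had levels of 0.71, 0.78 and 0.79 in Hyb-8 and of 1.16, 1.31 and 1.26 in Sun049T-Z, and fell by 0.48 (SE 0.12, adjusted p = 0.0062), which did not hold with the normexp background (-0.23, adjusted p = 0.414). The groups of both genes did not overlap. The same held for 2025 of the 5947 probes tested in the higher direction and for 1879 in the lower.

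In the β ring 2 genes rose and 2 fell, with 1 lower without Hyb-8 replicate 3. PUP3 had levels of 2.82, 2.67 and 2.75 in Hyb-8 and of 0.93, 2.37 and 2.29 in Sun049T-Z. The log2 fold change of 0.89 was the highest among the subunits (SE 0.33, adjusted p = 0.0462) and rested in large part on Sun049T-Z replicate 1, without which it was 0.42 (adjusted p = 0.0367). The call of PUP3 ended without any 1 of the 3 Hyb-8 arrays (adjusted p between 0.0885 and 0.109) or of the 3 Sun224T-K arrays (0.0514 to 0.0639), which enter only through the shared spread, and under 7 of the 15 other settings. PRE7 rose by 0.74 (SE 0.12, adjusted p = 0.00063) and showed no such array, with a mean of 0.29 ± 0.11 in Hyb-8 and -0.45 ± 0.15 in Sun049T-Z. PRE1 had levels of -0.22, -0.36 and -0.26 in Hyb-8 and of 0.72, 0.25 and 0.34 in Sun049T-Z, and fell by 0.71 (SE 0.16, adjusted p = 0.00365). PRE4 fell by 0.45, except without Hyb-8 replicate 3 (adjusted p = 0.0537). The 3 genes of the catalytic β subunits, PRE3, PUP1 and PRE2, ran from -0.24 to 0.30 and none passed.

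In the regulatory particle 2 of 18 genes rose and 6 fell in Hyb-8 relative to Sun049T-Z, with a median of -0.18. The base had 1 higher and 3 lower of 10 genes. RPT6, one of the ATPases that form the unfolding ring, had levels of -0.19, -0.15 and -0.18 in Hyb-8 and of 0.36, 0.77 and 0.85 in Sun049T-Z, and fell by 0.83 (SE 0.14, adjusted p = 0.000691). RPT2, whose product lies next to Rpt6 in that ring, fell by 0.79 (SE 0.10, adjusted p = 0.000168). The other 4 ATPase genes did not pass. RPN2, the large scaffold of the base, had levels of 1.45, 1.72 and 1.35 in Hyb-8 and of 1.00, 1.1 and 1.19 in Sun049T-Z, and rose by 0.41 (SE 0.12, adjusted p = 0.0159), but did not pass after scaling to ACT1 or with the fixed slide block (adjusted p = 0.215 and 0.086). RPN13, a ubiquitin receptor that docks on Rpn2, fell by 0.44, and was at -0.11 (adjusted p = 0.71) when outlier spots were kept.

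In the lid 1 of 8 genes rose and 3 fell, with a median of -0.27. RPN11 encodes the deubiquitinase that cuts the chain from the substrate. Its levels were 1.01, 1.01 and 0.96 in Hyb-8 and 1.53, 1.61 and 1.66 in Sun049T-Z, a decrease by 0.61 (SE 0.09, adjusted p = 0.00042), and the arrays of each strain lay close together. The scaffold genes RPN6 and RPN7 fell by 0.54 and 0.30. The call of RPN7 held only without Hyb-8 replicate 1 or Sun224T-K replicate 2 among the 9 fits that each left out 1 array (adjusted p between 0.0519 and 0.128 in the others), and that of RPN6 ended when outlier spots were kept (-0.16, adjusted p = 0.633). RPN12 rose by 0.35 (SE 0.13, adjusted p = 0.0441), with levels of 1.30, 1.63 and 1.39 in Hyb-8 and of 0.87, 1.21 and 1.18 in Sun049T-Z. Without Sun049T-Z replicate 1 its difference was 0.25 (adjusted p = 0.12). The call of RPN12 held only without Hyb-8 replicate 1 or Sun224T-K replicate 2 among those 9 fits, and ended under 8 of the 15 other settings. In all, 4 subunits were higher and 8 lower without that array. The count of higher subunits was 3 without Hyb-8 replicate 1, Hyb-8 replicate 2, Sun224T-K replicate 3, Sun049T-Z replicate 2 or Sun049T-Z replicate 3, and 2 without Hyb-8 replicate 3.

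**Figure D3:**
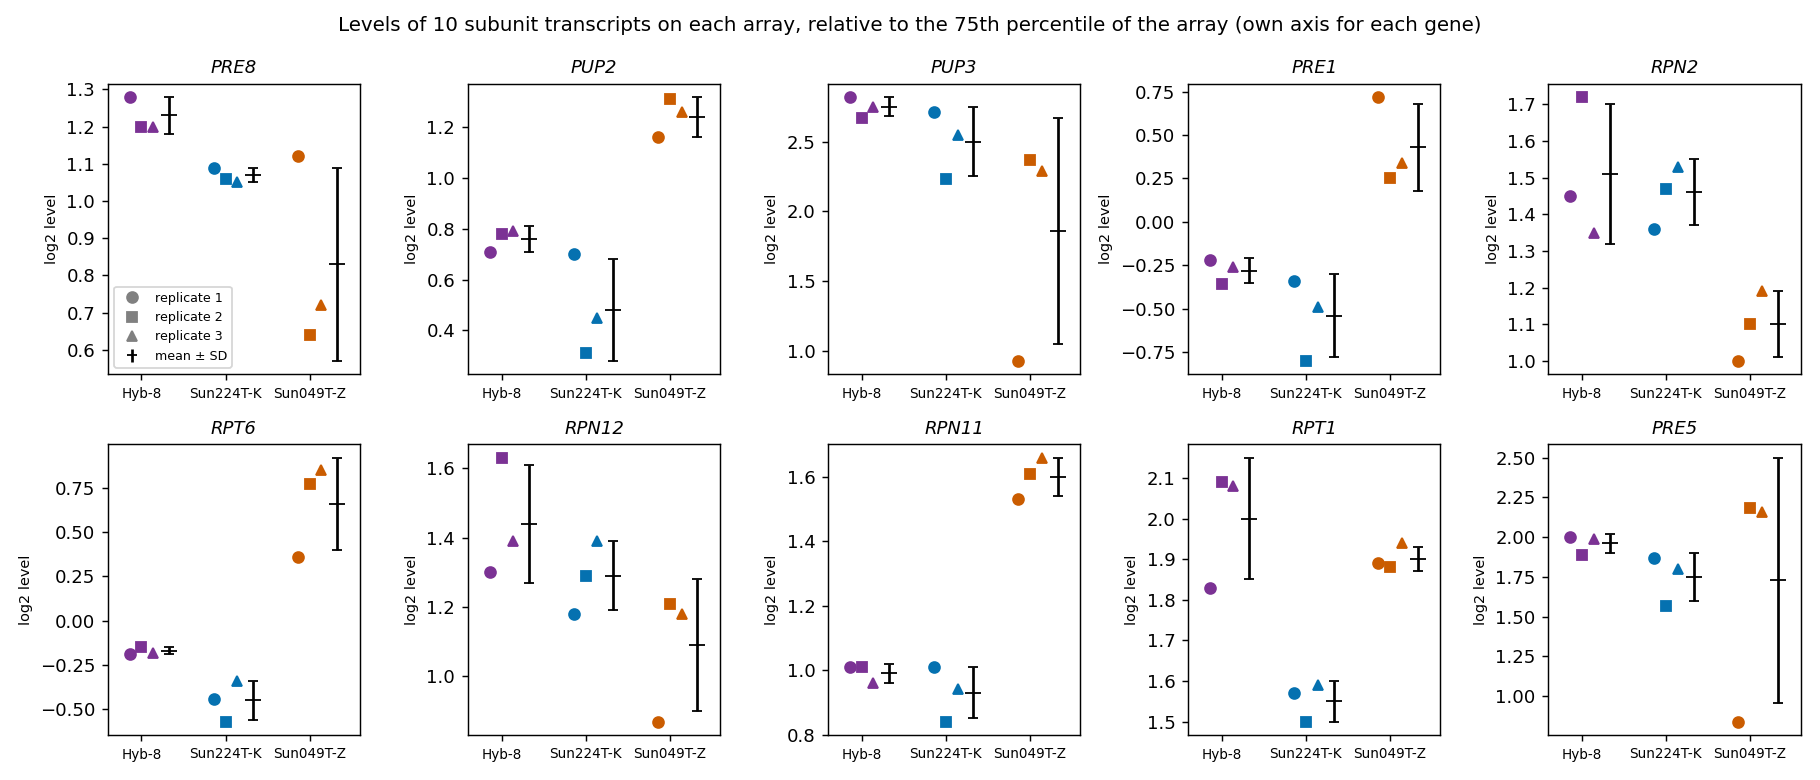
Levels of 10 subunit transcripts on each array (log2 relative to the 75th percentile, own axis for each gene) with the mean and SD of each strain (n = 3). Sun049T-Z replicate 1 lies apart for PUP3, at 0.93, and for PRE5, at 0.84, whereas for RPN11 the 3 arrays of each strain lie close together.

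PRE5, an α ring gene, was beside PUP3 the member on which Sun049T-Z replicate 1 lay farthest from the other arrays of its strain. It had levels of 2.00, 1.89 and 1.99 in Hyb-8, 1.87, 1.57 and 1.80 in Sun224T-K, and 0.84, 2.18 and 2.16 in Sun049T-Z. The SD of PRE5 in Sun049T-Z was 0.77 and that of PUP3 was 0.81, whereas every other member had an SD of 0.26 or less there, and the median over the members was 0.11 in each strain. The difference of Hyb-8 over Sun049T-Z was 0.23 (adjusted p = 0.547) with that array and -0.21 (adjusted p = 0.141) without it. For Sun224T-K over Sun049T-Z it was 0.02 (adjusted p = 0.962) with the array and -0.43 (adjusted p = 0.0115) without it. In that comparison PRE8 also gained a call without the array (0.39, adjusted p = 0.00671), whereas PRE3, RPN1, RPN2 and RPN9 lost theirs (adjusted p between 0.0501 and 0.0675), and in Hyb-8 over Sun049T-Z RPN7 and RPN12 lost theirs.

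Relative to Sun224T-K, all 32 subunits had a higher mean in Hyb-8, by small amounts. The log2 fold changes lay between 0.01 for SCL1 and 0.44 for RPT1, with a median of 0.18, or 1.13-fold, against 0.01 over all probes. Of all probes tested, 52.1% lay above 0. The SD between the subunits was 0.10, against 0.36 over all probes, which ran from -4.62 to 2.97. The 25th to 75th percentile was 0.11 to 0.25 for the subunits and -0.16 to 0.20 for all probes. The subunits thus lay closer to each other than probes in general, which include dimmer ones. The median was 0.20 in the core particle and 0.16 in the regulatory particle, and between 0.14 and 0.21 in each of the α ring, β ring, base and lid.

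Only 1 of the 32 subunits passed the test in Hyb-8 relative to Sun224T-K, higher, and 0 passed lower (limma), against 5.48% of all probes, 3.03% higher and 2.46% lower. At an unadjusted p under 0.05 there were 4, against 22.7% of all probes, so that this share too was under the background, and none met the 2-fold rule, which 1.24% of all probes met. For 10 subunits every Hyb-8 array lay above every Sun224T-K array, against 15.5% of all probes, and for none did every Hyb-8 array lie below (14.9% of all probes). Of these 10, 5 were in the α ring (PRE8, PRE6, PUP2, PRE5 and PRE10), 4 were ATPase genes (RPT1, RPT2, RPT3 and RPT6), and RPN5 was in the lid. None of the β ring genes was among these 10. For PUP2, PRE10, RPN5, PRE5 and RPT3 the strains were barely apart. Their lowest Hyb-8 and highest Sun224T-K levels were 0.71 and 0.70, 1.70 and 1.69, 0.28 and 0.27, 1.89 and 1.87, and 1.32 and 1.32 (rounded).

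RPT1, an ATPase gene of the base, was the subunit that passed. Its levels were 1.83, 2.09 and 2.08 in Hyb-8, 1.57, 1.50 and 1.59 in Sun224T-K, and 1.89, 1.88 and 1.94 in Sun049T-Z. Hyb-8 lay above Sun224T-K on every array and overlapped with Sun049T-Z. The difference over Sun224T-K was 0.44 (95% interval 0.21 to 0.67, adjusted p = 0.0384), and over Sun049T-Z it was 0.10 (adjusted p = 0.443). The call did not hold with the pair of strains fitted alone (adjusted p = 0.0698) or when any 1 array was left out other than Hyb-8 replicate 1 and Sun049T-Z replicate 1, where the adjusted p lay between 0.0687 and 0.149. SCL1, an α ring gene with the smallest difference, had levels of 2.18, 2.30 and 2.08 in Hyb-8 and of 2.26, 2.02 and 2.26 in Sun224T-K. Its difference was 0.01, with a 95% interval from -0.28 to 0.30.

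The direction shared by the 32 subunits was less complete within slides and with single arrays left out. Within slide 2, which held 1 Hyb-8 array and 2 Sun224T-K arrays, 32 of 32 subunits had a higher value in Hyb-8 than on the Sun224T-K arrays, with a median of 0.21. Within slide 4, which held 1 array of each strain, 25 were higher and 7 lower, with a median of 0.13, and 50.6% of all probes lay above 0. The Sun224T-K array on which the subunits were lowest was replicate 2, with a median of -0.23 relative to the mean of each gene over the 9 arrays, against -0.10 and -0.09 on replicates 1 and 3. The Hyb-8 arrays had medians of 0.04, 0.09 and -0.02, and those of Sun049T-Z 0.23, 0.08 and 0.13. All Hyb-8 arrays thus lay above all Sun224T-K arrays. A slide and the single arrays on it cannot be told apart. Of the 32 subunits, 29 were higher in Hyb-8 without Hyb-8 replicate 1, 30 without Hyb-8 replicate 2, and 31 without Sun224T-K replicate 2, where the median was 0.13, or without Sun224T-K replicate 3. There were 30 after quantile normalization or with the slide in the fit as a fixed block, and 31 with a random one.

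**Figure D4:**
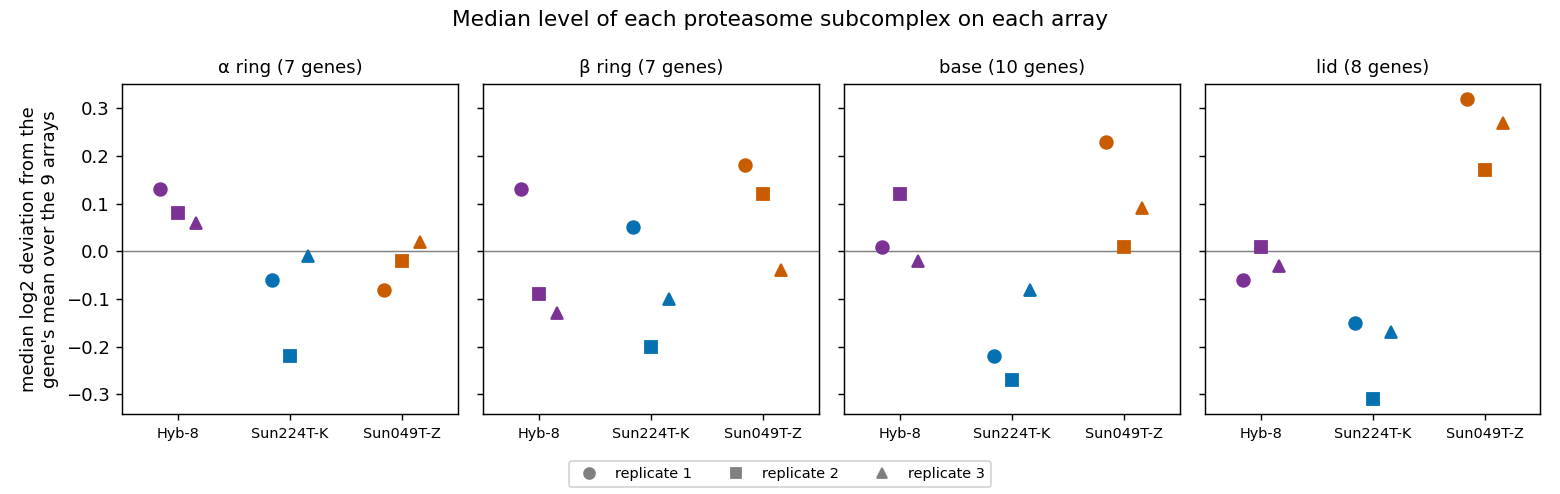
Median deviation of the genes of each subcomplex from their mean over the 9 arrays (log2), on each array. In the lid, the Sun049T-Z arrays lie at 0.17 to 0.32, above all Hyb-8 arrays at -0.06 to 0.01, and the Sun224T-K arrays lie lowest at -0.31 to -0.15. In the β ring the strains overlap.

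Between the parental strains, more subunit genes were lower in Sun224T-K than higher. Relative to Sun049T-Z, 16 of the 32 subunits fell in Sun224T-K, 2 rose and 14 did not pass, against 58.2% of all probes that passed, with 29.1% in each direction. The median was -0.29, or 0.82-fold, against 0 over all probes. Values ran from -1.11 for RPT6, the only subunit at a fold of at least 2 (20.1% of all probes, 10.7% lower), to 0.63 for PUP3, which did not pass (adjusted p = 0.129) and was 0.17 without Sun049T-Z replicate 1, where PRE7, at 0.68, was highest. A second subunit met the 2-fold rule without Sun049T-Z replicate 2, Sun049T-Z replicate 3, Sun224T-K replicate 1 or Sun224T-K replicate 3. After scaling to ACT1 24 subunits were lower and 0 higher. Without Sun049T-Z replicate 1 the counts were 14 lower and 2 higher, PRE8 being higher there in place of RPN2. The count of higher subunits was 1 without Sun049T-Z replicate 2, Sun224T-K replicate 2 or Sun224T-K replicate 3.

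The decrease was wider in the regulatory particle, where 11 of 18 genes fell and 1 rose, with a median of -0.39, than in the core particle, where 5 of 14 fell and 1 rose, with a median of -0.10. This difference between the particles was not tested. In the lid 6 of 8 genes fell (RPN3, RPN6, RPN7, RPN8, RPN9 and RPN11) and none rose, with a median of -0.50. The call of RPN9 (-0.26) held in 1 of the 9 fits with an array left out, that without Hyb-8 replicate 2, and lay between 0.054 and 0.145 in adjusted p in the others. RPN11 had levels of 1.01, 0.84 and 0.94 in Sun224T-K, against 1.53, 1.61 and 1.66 in Sun049T-Z, and fell by 0.67 (SE 0.09, adjusted p = 0.000237). In the base 5 of 10 fell (RPT1, RPT2, RPT6, RPN1 and RPN13) and RPN2 rose by 0.36 (SE 0.12, adjusted p = 0.0281), a call that ended without Sun049T-Z replicate 1, Sun049T-Z replicate 2, Sun224T-K replicate 2 or Sun224T-K replicate 3 (adjusted p between 0.0569 and 0.0918). Without Sun049T-Z replicate 3 only 3 base genes passed lower, as RPN1 and RPT1 lost their calls, and RPN1 also lost its call without Sun049T-Z replicate 1, Sun224T-K replicate 1 or Sun224T-K replicate 2. With outlier spots kept, RPT1, RPN6 and RPN13 did not pass (adjusted p between 0.0721 and 0.497). RPT6 had levels of -0.44, -0.57 and -0.34 in Sun224T-K, against 0.36, 0.77 and 0.85 in Sun049T-Z, and was 0.462 times as high (SE 0.14 on the log2 scale, adjusted p = 0.000119).

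Of the core genes, PRE1 fell by 0.98 in Sun224T-K (SE 0.16, adjusted p = 0.000613), with levels of -0.34, -0.80 and -0.49 against 0.72, 0.25 and 0.34 in Sun049T-Z. PUP2 fell by 0.76 (SE 0.12, adjusted p = 0.00048; 0.0641 with the normexp background), and PRE4, PRE10 and PRE3 fell by 0.53, 0.38 and 0.32. PRE7 rose by 0.59 (SE 0.12, adjusted p = 0.0022), but did not pass after scaling to ACT1 (0.27, adjusted p = 0.112). The arrays of both strains did not overlap for any of these genes. The same held for 1989 of the 5947 probes tested in the higher direction and for 1948 in the lower. PRE3, which encodes a catalytic β subunit, was the only one of the 3 catalytic genes that passed. The calls of PRE3 and PRE10 ended without Sun049T-Z replicate 2, Sun049T-Z replicate 3, Sun224T-K replicate 2 or Sun224T-K replicate 3, which left 3 core genes lower, and that of PRE3 also without Sun049T-Z replicate 1.

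The mean of Hyb-8 lay between those of the parental strains for 20 of the 32 subunits and above both for 12. For none was it below both, which follows from the 32 means above Sun224T-K. Over all probes 46.5% lay between, 28.6% above both and 24.9% below both. These are positions of means, with no test. Of 19 members that passed between the parental strains, RPN4 included, Hyb-8 lay between in 16 and above both in 3 (PRE7, RPT1 and RPN2). Over all probes that passed between the parental strains, 58.8% lay between.

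Genes that build, cap or feed the proteasome were described beside the subunits. None of the 49 genes in these 5 lists passed in Hyb-8 relative to Sun224T-K (limma), against 5.48% of all probes, and at an unadjusted p under 0.05 there were 3 assembly chaperones, 1 associated protein and 5 genes of the ubiquitin list, against 22.7% of all probes. Without Sun224T-K replicate 1, 1 assembly chaperone passed higher. Of 10 assembly chaperones, 1 rose and 4 fell in Hyb-8 relative to Sun049T-Z, and 1 rose and 5 fell in Sun224T-K. Over all probes 28.7% rose and 27.3% fell in Hyb-8, and 29.1% passed in each direction in Sun224T-K. The 4 chaperones that were lower in Hyb-8 became 2 without Hyb-8 replicate 3 or Sun049T-Z replicate 2. HSM3, a chaperone of the base that holds Rpt1 during assembly, had levels of -2.45, -2.44 and -2.51 in Hyb-8, -2.40, -2.41 and -2.29 in Sun224T-K, and -0.28, -0.45 and -0.46 in Sun049T-Z. It fell by 2.07 in Hyb-8 (SE 0.10, adjusted p = 4.75e-07) and by 1.97 in Sun224T-K (SE 0.10, adjusted p = 6.18e-07). UMP1, the chaperone of core assembly, rose in both, by 0.53 and 0.50.

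Of 9 genes listed as associated with the proteasome, 3 rose and 3 fell in Hyb-8 relative to Sun049T-Z. In Sun224T-K 2 rose and 4 fell. Over all probes 56% passed in Hyb-8 and 58.2% in Sun224T-K. Of the 2 higher in Sun224T-K, 1 passed when any single array was left out other than Sun224T-K replicate 2 and Sun049T-Z replicate 3. Sun049T-Z replicate 1 lay apart for HUL5 (-1.77, against -0.42 and -0.41) and for SEM1 (-1.49, against -0.57 and -0.34). Without it HUL5 was lower by 0.55 in Hyb-8 and by 0.52 in Sun224T-K (limma adjusted p = 0.00864 and 0.011). The lower counts were then 4 and 5. In Sun224T-K the 4 lower became 3 without any other single array except Sun224T-K replicate 1. SEM1, a lid gene, had a mean of 0.08 in Hyb-8 and of -0.8 in Sun049T-Z with all arrays. Without Sun049T-Z replicate 1 the Sun049T-Z mean was -0.46, and the difference was smaller. SEM1 was then higher by 0.54 in Hyb-8 (limma adjusted p = 0.00911), and by 0.22 in Sun224T-K, which did not pass (limma adjusted p = 0.19). BLM10, which encodes an alternative cap of the core particle, had levels of -2.66, -2.65 and -2.89 in Hyb-8, -2.68, -3.01 and -2.35 in Sun224T-K, and -1.21, -1.65 and -1.68 in Sun049T-Z. It fell by 1.22 in Hyb-8 and by 1.17 in Sun224T-K (SE 0.19 each, adjusted p = 0.000477 and 0.00062). All arrays of both strains lay below all Sun049T-Z arrays.

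Of 4 factors known to act on the RPN4 promoter, YAP1 and HSF1 fell relative to Sun049T-Z, by 0.35 and 0.58 in Hyb-8 and by 0.45 and 0.44 in Sun224T-K. Over all probes 27.3% fell in Hyb-8 and 29.1% in Sun224T-K. PDR1 and PDR3 did not pass. UBR2, MUB1 and RAD6, whose products ubiquitinate Rpn4, did not pass in any comparison. Some of these values rested on Sun049T-Z replicate 1. RAD6, the ubiquitin-conjugating enzyme, had levels of -0.34, -0.57 and -0.26 in Hyb-8, -0.44, -0.55 and -0.53 in Sun224T-K, and -0.78, 0.50 and 0.32 in Sun049T-Z. Without that array RAD6 was lower by 0.81 in Hyb-8 (adjusted p = 0.000648) and by 0.92 in Sun224T-K (adjusted p = 0.000314). PDR3 was then lower by 0.80 and 0.58, and UBR2 was lower in Sun224T-K by 0.84, and these differences passed. Of 23 genes of ubiquitin, its enzymes and receptors and the Cdc48 complex, 2 rose and 7 fell in Hyb-8 relative to Sun049T-Z. In Sun224T-K 3 rose and 9 fell. With each array left out, 2 to 3 rose and 5 to 10 fell in Hyb-8. For Sun224T-K these counts were 2 to 3 and 8 to 9. The share of all probes that passed was 56% in Hyb-8 and 58.2% in Sun224T-K. UFD1, a cofactor of the segregase Cdc48, had levels of -1.13, -1.06 and -0.97 in Hyb-8, -1.28, -1.35 and -1.25 in Sun224T-K, and -0.25, -0.26 and -0.20 in Sun049T-Z. It fell by 0.82 in Hyb-8 (adjusted p = 6.93e-05) and by 1.06 in Sun224T-K (SE 0.09, adjusted p = 1.38e-05), where it met the 2-fold rule.

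**Figure D5:**
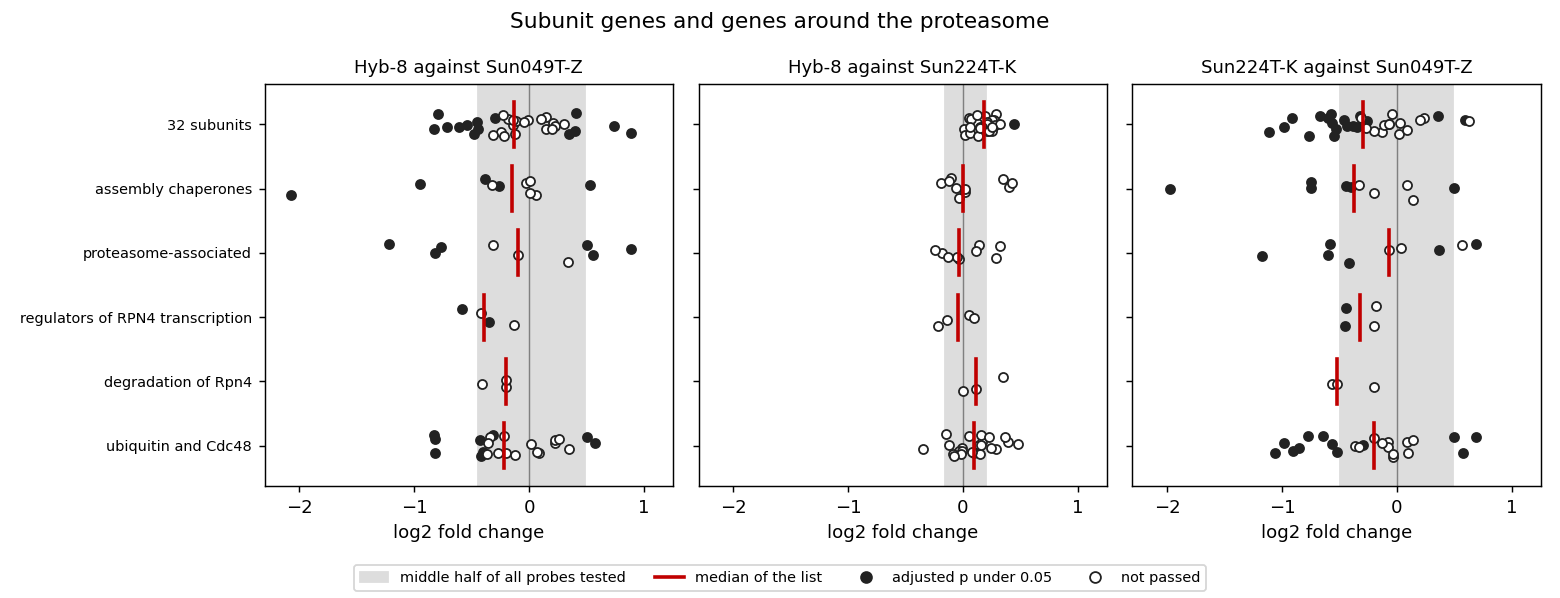
Log2 fold changes of the 32 subunits and of 5 lists of genes around the proteasome in the 3 comparisons, with 1 point for each gene, the median of each list as a red line and the middle range of all probes tested (25th to 75th percentile) in grey. HSM3 is the point at -2.07 in Hyb-8 and -1.97 in Sun224T-K against Sun049T-Z, and no list has a filled point in Hyb-8 against Sun224T-K outside the subunits.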

How the data were processed

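Scanner files from Agilent Feature Extraction 10.1.1.1 were deposited, in which spot values are background-subtracted intensities on a linear scale, beside marks for spots that were outliers, saturated or well above background. A GeneSpring table of log2 values, which the authors deposited too, was used only as an alternative. Its values matched the scanner values on the log2 scale with the same sign after a shift to the 75th percentile of the array and after taking off the median of each probe, and its column medians lay between 0 and 0.082. The genome build and the aligner of probes are not given in the sources used here.

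Of the 43792 spots per array that were not controls, those marked as outliers were dropped. The log2 intensity was set to the 75th percentile of the array, and a mean was taken over the 7 spots of each probe. The filter on dim probes asked that all 3 arrays of any 1 strain be well above background, which kept 5947 probes and removed 309. Names came from the files, and 5756 of 6256 probes matched a locus tag of a RefSeq gene table. Systematic names gave the chromosomes. Strains were compared in R 4.3.3 by lmFit and eBayes of limma 3.58.1, with no other term in the fit. The number of arrays limits the precision. Arrays with the same replicate number did not deviate together, so the numbers were not used as pairs.

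Earlier results of these data were known when members, lists and the naming rule were chosen. The rule takes RPN4, the member with the largest and the smallest change in each subcomplex (Hyb-8 against Sun049T-Z) and in the other comparisons, and every member that passed at a fold of at least 2, with other lists by counts and 2-fold members. PRE5, RAD6, PDR3, UBR2 and HUL5 were named for Sun049T-Z replicate 1 after their values were seen. Other genes named with values, such as UMP1, YAP1, HSF1, SEM1 and further subunits, also lie outside the rule. The alternatives were other normalizations (quantile, array median, ACT1), a normexp background (offset 50), other filters on dim, outlier and saturated spots, the authors' log2 values, a trended robust test, unadjusted p, the pair of strains fitted alone, blocks for the replicate number or for the slide, and leaving out 1 array at a time. Tested on simulated data, 200 genes among 5947 changed by a log2 value of 0.5, 1 or 2 were recovered in 19%, 82% and 98% for Hyb-8 against Sun049T-Z and in 21.5%, 81% and 98% for Hyb-8 against Sun224T-K. Sequences are not shown because no promoter or protein table was used here.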

Additional observations from a re-analysis of the deposited data

How the results depend on the processing

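Changes of 0.5 on the log2 scale were often missed in the simulation, which changed 200 of 5947 genes. Over Sun049T-Z 56% of all probes passed in Hyb-8, which makes the adjusted p less strict. The simulated shares therefore do not carry over to that comparison. A subunit that did not pass may still differ, and most differences over Sun224T-K lay under 0.5. The decrease of RPN4 relative to Sun049T-Z passed under every alternative run, between -1.14 and -0.98 for Hyb-8 and between -1.76 and -1.43 for Sun224T-K, and with each array left out between -1.05 and -0.87 and between -1.47 and -1.39. For Hyb-8 over Sun224T-K, RPN4, at 0.45, passed where p-values were not adjusted, and the difference lay between 0.39 and 0.57 with each array left out.

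The 5 subunits that rose in Hyb-8 relative to Sun049T-Z became 3 after quantile normalization, with the normexp background or with the authors' log2 values, 2 after a shift to the array median or with a fixed block for the slide, which takes Sun049T-Z replicate 1 and Hyb-8 replicate 2 out of the comparison, and 1 after scaling to ACT1. With each array left out there were 2 to 5 higher and 7 to 10 lower, and the median lay between -0.16 and -0.09. The 1 subunit higher than in Sun224T-K became 0 with the normexp background, outlier spots kept, the pair of strains fitted alone, a fixed block for the slide or the replicate block, and 4 at an unadjusted p; with each array left out it was 0 or 1, with 0 lower and a median of 0.13 to 0.20. For Sun224T-K over Sun049T-Z the 2 higher became 1 after the median shift and 0 after scaling to ACT1, and 1 to 2 were higher and 11 to 16 lower with each array left out, with a median of -0.34 to -0.25. The cause of these changes was not tested.

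Scaling to ACT1 moved the median of all probes to -0.13 (Hyb-8 over Sun049T-Z), 0.17 (Hyb-8 over Sun224T-K) and -0.32 (Sun224T-K over Sun049T-Z), and that of the subunits to -0.29, 0.34 and -0.61. Relative to all probes the subunits then lay at -0.16, 0.17 and -0.29, the same as in the main setting. This follows from the method, because scaling to ACT1 takes the same value off every probe of an array. With the replicate block, RPT1 over Sun224T-K (0.44, adjusted p = 0.0832), PUP3 (0.89, 0.0657) and RPN7 (-0.30, 0.0629) in Hyb-8 over Sun049T-Z, and PRE10 (-0.38, 0.0599) and RPN9 (-0.26, 0.0754) in Sun224T-K over Sun049T-Z no longer passed, and no other gene run under it changed its call. Same-numbered arrays correlated by 0.15 at most.

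Some small differences that did not pass changed sign. In Hyb-8 over Sun049T-Z, RPT1 was -0.06 after scaling to ACT1, and PRE5 was -0.18 with the fixed slide block and -0.21 to 0.46 with each array left out. In Hyb-8 over Sun224T-K, SCL1 was -0.03 after quantile normalization, -0.05 with the fixed slide block, 0 with a random slide block and -0.07 to 0.06 with each array left out, and RPN2 was -0.06 with the fixed slide block and at the lowest -0.06 with an array left out, that of Hyb-8 replicate 2. In Sun224T-K over Sun049T-Z, scaling to ACT1 gave PRE8 -0.08, PRE5 -0.30 and RPN12 -0.12. PRE5 was also -0.05 (median shift), -0.09 (normexp), -0.01 (authors' log2 values), -0.42 (fixed slide block, adjusted p = 0.0244), -0.03 (random slide block), and -0.43 to 0.25 with each array left out.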
